A study of Mus musculus with 6 samples.

Results

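Cell cycle and DNA replication genes were measured by RNA sequencing of naive CD4 T cells (resting helper cells before any encounter with antigen) sorted from Trim28 knockout mice and from wild-type littermates. The set was a list of 45 gene symbols, from the loading of replication origins in G1 to the separation of chromosomes in mitosis. A symbol was matched to the rows of the deposited table through RefSeq transcript accessions, and the row with the highest total stood for a gene with several rows. Of the 45 listed genes, 44 had a row, among 16911 genes in the table, and Tpx2 was not analysed here. Membership rests on gene function and not on a measured value, and the list was proposed with earlier results of these libraries known.

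The Trim28 KO group had 3 libraries (KO1, KO2 and KO3) and the wild-type group had 3 (WT1, WT2 and WT3), both of the C57BL/6 strain. Cells were enriched on magnetic beads and sorted by flow cytometry, and no stimulation of these cells is named. The part of Trim28 that was removed, the promoter behind any Cre, the age of the mice and the number of mice behind each library are not given in the sources used here. The comparison asks whether resting naive cells that lack Trim28, a corepressor that recruits histone-modifying enzymes to chromatin, differ in their proliferation genes.

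Resting naive T cells sit outside the cell cycle until an antigen drives them into G1. Before S phase, Cdc6 and Cdt1 load the Mcm2 to Mcm7 helicase onto replication origins, and Pcna then holds the polymerases on DNA while ribonucleotide reductase and thymidine enzymes supply nucleotides. E2F factors drive the S phase genes, and the genes of G2 and mitosis follow through the Myb-MuvB complex and Foxm1, which act at a promoter element known as the cell cycle genes homology region (CHR). In quiescent cells the DREAM complex sits on the same elements and keeps those genes low. Mki67 encodes the Ki-67 protein, which coats mitotic chromosomes and is the standard stain for cycling cells.

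The promoters of 4 members are printed because they carry the elements named above, from RefSeq on GRCm38.p6, the assembly of mm10. Each runs 5′ to 3′ on the gene's own strand, from 250 bases before an annotated start to 50 bases from it. The start used was the one nearest the 5′ end of the gene. For Mki67 this start lay within the gene, whose 5′ end is at 135716450. Capitals mark a match, on either strand, to the CCAAT box (CCAAT), to the CHR (spelled TTTGAA, or in other genes TTCGAA) or to an E2F site (TTCGCGC, or in other sites TTGGCGC, or in still others TTCCCGC). They were taken from the members given library by library, as those with the most kinds of motif and then the highest level.
Mki67 (chr7:135716330-135716629, minus strand): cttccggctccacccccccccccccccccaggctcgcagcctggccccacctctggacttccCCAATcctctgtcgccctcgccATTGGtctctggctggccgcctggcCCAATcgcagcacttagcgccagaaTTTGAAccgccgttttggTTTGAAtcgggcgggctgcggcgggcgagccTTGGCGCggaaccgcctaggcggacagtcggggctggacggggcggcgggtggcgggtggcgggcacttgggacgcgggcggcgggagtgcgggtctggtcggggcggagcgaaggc
Mcm6 (chr1:128359656-128359955, minus strand): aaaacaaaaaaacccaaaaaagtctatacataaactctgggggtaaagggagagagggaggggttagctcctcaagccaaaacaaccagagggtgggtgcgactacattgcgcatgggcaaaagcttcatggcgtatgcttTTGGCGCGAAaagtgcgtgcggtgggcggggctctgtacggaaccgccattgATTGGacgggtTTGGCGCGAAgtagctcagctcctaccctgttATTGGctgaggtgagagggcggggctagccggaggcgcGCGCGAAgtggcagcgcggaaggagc
Mcm2 (chr6:88898731-88899030, minus strand): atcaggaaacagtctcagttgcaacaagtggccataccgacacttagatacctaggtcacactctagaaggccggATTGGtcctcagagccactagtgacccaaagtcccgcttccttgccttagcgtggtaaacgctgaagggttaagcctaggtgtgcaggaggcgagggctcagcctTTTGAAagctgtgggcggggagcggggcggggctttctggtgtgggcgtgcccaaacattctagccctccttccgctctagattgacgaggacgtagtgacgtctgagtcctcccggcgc
Hmgb2 (chr8:57511593-57511892, plus strand): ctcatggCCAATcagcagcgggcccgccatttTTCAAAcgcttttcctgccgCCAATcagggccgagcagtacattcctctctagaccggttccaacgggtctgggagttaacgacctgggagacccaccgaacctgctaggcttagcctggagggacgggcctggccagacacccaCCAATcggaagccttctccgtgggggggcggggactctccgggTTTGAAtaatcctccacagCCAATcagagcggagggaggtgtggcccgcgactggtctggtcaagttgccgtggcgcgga
The Mki67 window held all 3 kinds of motif, with 3 CCAAT boxes, 2 CHR matches and 1 E2F match. The Mcm6 window held 5 E2F matches, some of which share letters with a match on the other strand, and 2 CCAAT boxes, but no CHR match. Mcm2 had 1 CCAAT box and 1 CHR match, and Hmgb2 had 4 CCAAT boxes and 2 CHR matches. Of the 32 tested members with a promoter entry, 26 held a CCAAT box, 17 a CHR match and 10 an E2F match. Among 27025 promoters of the same length, the shares were 38.0%, 19.5% and 8.24%. A match is a string of letters and not evidence of binding.

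Depth ran from 22005759 to 44372701 reads in the Trim28 KO libraries and from 23438722 to 40586195 in the wild-type libraries. Trim28 itself had normalized read counts of 738, 628 and 1247 in KO1, KO2 and KO3, against 8429, 8287 and 9428 in WT1, WT2 and WT3, a Trim28 KO mean of 9.99% of wild-type. Markers of naive CD4 T cells were high in each library, and their sum over 8 genes was lowest in KO3 (110217 against 144549 and 129081 in KO1 and KO2, and 133035 to 149881 in wild-type libraries). KO3 stood apart in markers of other cells. The sum of 14 B cell and MHC class II markers was 666, 565 and 7122 in KO1, KO2 and KO3, against 1274, 494 and 1244 in WT1, WT2 and WT3. KO3 was the highest library for 12 of the 14, none of which was at 0 in all libraries, although Ebf1, Cd22 and Fcer2a were at or near 0 in most. Y-linked transcripts were high in KO2 and WT1 and near 0 in the other libraries. In bulk RNA, a change in the number of cells of a type and a change in the RNA of each cell cannot be told apart.

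With all libraries, no member of the list was called different between the groups. Of the 44 genes, 38 passed the filter of a mean normalized read count of at least 10 over the libraries. Limma called 0 of them higher and 0 lower at a Benjamini-Hochberg adjusted p under 0.05. The background over 13022 tested rows was 1.19% called higher and 0.315% called lower. At an unadjusted p under 0.05 there was 1 member, Pcna, beside 12.7% of all tested rows. With limma's voom weights on recovered reads 0 members were called, beside 133 rows higher and 20 lower among 13022 tested. The median log2 fold change of the 38 was 0.0021, with 18 below 0, beside 0.0019 over all tested rows. Members ranged from -0.70 for E2f1 to 0.77 for Cenpe. All Trim28 KO values lay above all wild-type values for 2 members, Rrm1 and Cenpe, and below them for 1, Pcna. Over all tested rows the shares were 9.21% above and 9.58% below.

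Behind the flat averages, the 3 knockout libraries did not look alike. KO3 was the highest of the 6 libraries for 30 of the 38 tested members, against 19.3% of all tested rows. KO1 or KO2 was the lowest library for 25 of them, a count without a share over all tested rows to set beside it. Mki67 had 568, 506 and 4624 normalized reads in KO1, KO2 and KO3, against 1065, 771 and 1331 in WT1, WT2 and WT3. KO1 and KO2 were thus below every wild-type library and KO3 above every one. Group means were 1899 ± 2360 in Trim28 KO and 1056 ± 280 in wild-type libraries (SD, n = 3 each), so the knockout SD exceeded its mean. Limma gave a log2 fold change of 0.09 over all libraries (SE 0.73, adjusted p 0.971).

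**Figure D1:**
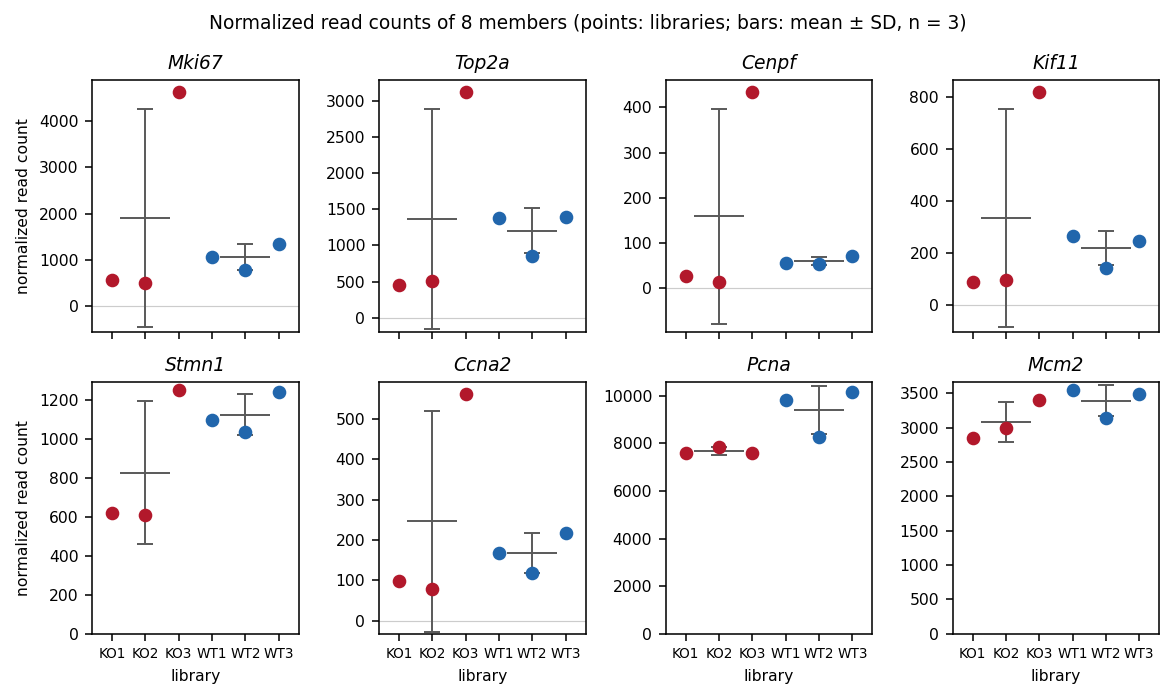
Normalized read counts of 8 members in each Trim28 KO library (red) and wild-type library (blue), with the mean and SD of each group as grey bars (n = 3). For Mki67, KO3 stands at 4624 above every other library while KO1 and KO2, at 568 and 506, are below the wild-type libraries, whereas Mcm2 varies little.

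The licensing genes, which load and form the replicative helicase, had smaller differences between libraries than most mitotic genes. Mcm2, a subunit of the helicase ring, had 2849, 2986 and 3404 normalized reads in KO1, KO2 and KO3, against 3549, 3133 and 3489 in WT1, WT2 and WT3. Mcm4, another ring subunit, had 4309, 4278 and 4547, against 4065, 3881 and 4889. Mcm6 had 3865, 4150 and 4494, against 4394, 4151 and 3939. The groups overlapped for each of these genes, and their log2 fold changes were -0.14 (SE 0.10), 0.04 (SE 0.10) and 0.0017 (SE 0.091). Mcm3, Mcm5 and Mcm7, the other ring subunits, had KO3 as the highest library and KO1 and KO2 below every wild-type library. Mcm5 had 1626, 1817 and 2566, against 2154, 1845 and 2173, Mcm7 had 2458, 2562 and 3475, against 2825, 2761 and 2913, and Mcm3 had 2081, 2237 and 2893, against 2588, 2312 and 2690. KO3 over the mean of KO1 and KO2 was 1.49, 1.38 and 1.34 for these genes, and none of them passed in either fit. Of the 9 licensing genes 8 were tested, and KO3 over the mean of KO1 and KO2 had a median ratio of 1.25 among them. The highest ratio, 2.76, belonged to Gins2, a subunit of the GINS complex that completes the helicase. Its level was far lower, at 55.0, 36.4 and 126 reads in KO1, KO2 and KO3, against 47.4, 37.4 and 58.7 in WT1, WT2 and WT3. Cdt1, the loader of the helicase, was between 1125 and 1409 in Trim28 KO and between 1001 and 1380 in wild-type libraries, while its partner Cdc6 did not pass the filter, at 1.46 to 15.9 and 3.30 to 16.2.

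Divided by transcript length, Mcm genes and Pcna were among the most abundant members in these resting cells. Averaged over the 6 libraries, Pcna had 5629 normalized reads per kilobase, Mcm6 1431, Mcm4 1206 and Mcm2 960. The mitotic genes were lower on that scale, with 246 for Top2a, 147 for Mki67, 57.6 for Kif11 and 9.77 for Cenpf. Stmn1 and Hmgb2, at 919 and 1097, were exceptions, being as abundant as the helicase subunits.

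Genes of the replication fork and of nucleotide supply showed the member with the smallest p over all libraries. Pcna, the sliding clamp, had 7577, 7868 and 7577 normalized reads in KO1, KO2 and KO3, against 9819, 8275 and 10154 in WT1, WT2 and WT3. The groups did not overlap, and KO3 was here at the level of KO1. Its log2 fold change of -0.29 (SE 0.10) did not pass (limma adjusted p 0.253). Rrm1, the large subunit of ribonucleotide reductase, had 1742, 1756 and 2018 reads in KO1, KO2 and KO3, against 1668, 1686 and 1603 in WT1, WT2 and WT3, with a difference of 0.15 on the log2 scale (SE 0.09, adjusted p 0.558). Rrm2, the small subunit, whose amount rises in S phase, had 177, 147 and 557, against 184, 155 and 231. KO3 was the highest library for both subunits, at 3.44 times the mean of KO1 and KO2 for Rrm2 and 1.15 times for Rrm1. Tk1 and Tyms, which make thymidine nucleotides, did not pass the filter. Tk1 had 2.86, 1.46 and 30.3 reads in KO1, KO2 and KO3, against 6.97, 0 and 9.27 in WT1, WT2 and WT3, and Tyms had 7.85, 2.91 and 0, against 2.79, 4.402 and 5.41, in a row that is a noncoding RefSeq transcript. A count of 0 allows up to 3 reads, which is 3.30 normalized reads in WT2 and 2.39 in KO3.

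Among cyclins and their kinases, the spread between libraries differed from gene to gene. Ccna2, the cyclin of S phase and G2, had 98.5, 78.7 and 561 normalized reads in KO1, KO2 and KO3, against 169, 119 and 217 in WT1, WT2 and WT3. Ccnb1, a mitotic cyclin, had 35.7, 42.3 and 269, against 105, 30.8 and 94.2. Ccne1, the cyclin of the G1 to S transition, had 320, 385 and 544, against 392, 283 and 382, and its values were the least uneven of the 3. Cdk1, the mitotic kinase, stood at 287 in KO3 against 26.4 and 29.1 in KO1 and KO2 and 20.9 to 70.3 in wild-type libraries, whereas Cdk2 was at 60.7 to 69.3 in Trim28 KO and 53.0 to 91.9 in wild-type libraries. KO3 over the mean of KO1 and KO2 was 10.3 for Cdk1, 9.71 for Ccnb2, 6.89 for Ccnb1 and 6.33 for Ccna2, but 1.54 for Ccne1 and 1.12 for Cdk2. Ccne2 did not pass the filter, at 4.28 to 6.38 in Trim28 KO and 1.100 to 6.97 in wild-type libraries.

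The 2 transcription factors of the list were low and uneven. E2f1, which drives S phase genes, had 5.71, 5.83 and 6.38 normalized reads in KO1, KO2 and KO3, against 1.39, 14.3 and 38.6 in WT1, WT2 and WT3. Its groups overlapped through WT1, and the knockout values rest on 8, 4 and 8 reads. Foxm1, which drives genes of G2 and mitosis, had 97.1, 21.9 and 135, against 55.8, 70.4 and 107.

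Mitotic kinases and destruction factors were mostly highest in KO3. Aurkb, the kinase of the chromosomal passenger complex, had 4.28, 7.29 and 147 normalized reads in KO1, KO2 and KO3, against 13.9, 11.0 and 36.3 in WT1, WT2 and WT3. Bub1b, a spindle checkpoint protein, had 111, 146 and 442, against 170, 112 and 175. Plk1, the polo-like kinase of mitotic entry, had 40.7, 11.7 and 116, against 34.9, 40.7 and 50.2. Aurka, the kinase of spindle poles, did not follow them, at 20.7, 14.6 and 13.5, against 5.58, 6.602 and 22.4. Cdc20, an activator of the anaphase-promoting complex, had 176, 121 and 372, against 197, 172 and 246. Ube2c, the conjugating enzyme of that complex, had 15.7, 4.37 and 188, against 32.1, 15.4 and 41.7. Cdca3, a trigger of mitotic entry, had 35.0, 33.5 and 228, against 78.1, 60.5 and 80.3. KO3 was above every other library for each of these genes but Aurka. Bub1 and Ttk, also of the checkpoint, were near 0, with at most 5 reads of Bub1 in a library and 1 read of Ttk over the whole series.

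All 9 tested kinetochore and spindle genes, and 2 of the 3 chromosome genes, were highest in KO3. Cenpf, a kinetochore protein of G2 and mitosis (chromosome 1, 189640606 to 189688107 of GRCm38.p6), had 27.1, 13.1 and 434 normalized reads in KO1, KO2 and KO3, against 54.4, 53.9 and 69.5 in WT1, WT2 and WT3. Kif11, the motor that separates spindle poles (chromosome 19, 37376382 to 37421863), had 89.96, 96.2 and 819, against 268, 145 and 248. Top2a, the topoisomerase that untangles sister chromatids (chromosome 11, 98992947 to 99024199), had 453, 514 and 3120, against 1378, 852 and 1391. All 3 had KO1 and KO2 below every wild-type library and KO3 above every one, as did Mki67 (chromosome 7, 135689784 to 135716450). Stmn1, a protein that destabilizes microtubules (chromosome 4, 134468320 to 134473843), showed less of a gap in KO3. It had 619, 608 and 1249, against 1093, 1037 and 1239, so that KO3 was just above WT3. Cenpa, the centromeric histone, had 783, 742 and 1016, against 683, 670 and 762, and Hmgb2, a chromatin protein, had 2274, 2547 and 3262, against 3089, 2577 and 3542. Of the other spindle genes, Nuf2 and Cdca8 were at 151 and 143 in KO3, against 9.28 to 41.4 in KO1 and KO2 and 13.2 to 65.7 in wild-type libraries, and Cenpe was at 488, against 168 and 169 in KO1 and KO2 and 109 to 166 in wild-type libraries. Birc5 and Nusap1 were low, at 5.83 to 14.3 and 3.57 to 35.1 in Trim28 KO and 8.37 to 13.1 and 6.97 to 9.904 in wild-type libraries, and without KO3 they did not pass the filter.

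**Figure D2:**
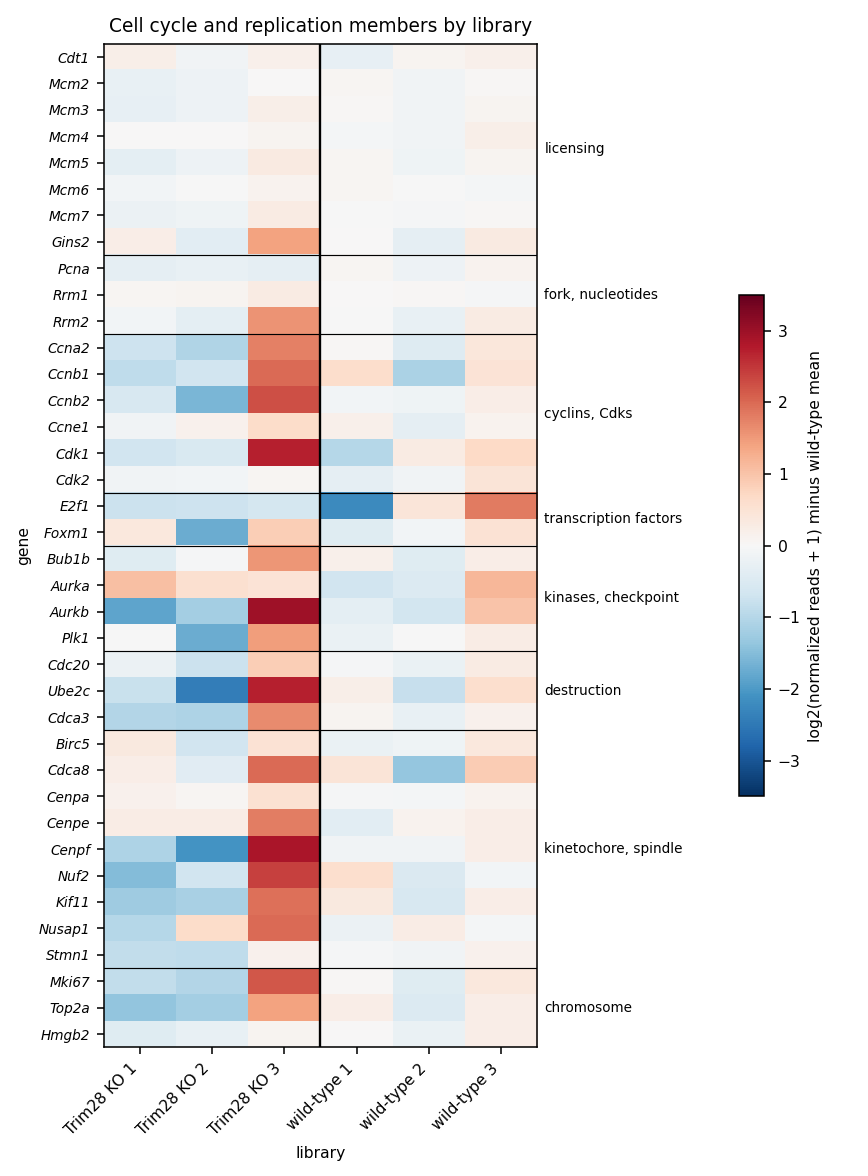
Level of the 38 tested members in each library as log2 of the normalized read count plus 1, minus the mean of the wild-type libraries, with genes in rows by role and libraries in columns. KO3 is red in most rows below the licensing genes, KO1 and KO2 are blue for many of the same genes, and the Mcm genes are pale in every column.

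Without KO3, 5 members were lower in Trim28 KO and 0 were higher, beside a background of 1.55% lower and 2.75% higher among 12856 tested rows. The 5 were Stmn1, Top2a, Mki67, Kif11 and Cenpf, among 36 tested members, and 14 members had an unadjusted p under 0.05, beside 21.2% of all tested rows. Top2a averaged 484 in KO1 and KO2, and its log2 fold change was -1.29 (SE 0.20, limma adjusted p 0.00681). Stmn1 had -0.87 (SE 0.12, adjusted p 0.0028), Mki67 -0.94 (SE 0.20, adjusted p 0.0288), Kif11 -1.19 (SE 0.26, adjusted p 0.0347) and Cenpf -1.59 (SE 0.37, adjusted p 0.0408). Cdca3 (-1.06, adjusted p 0.0567), Ccna2 (-0.88, adjusted p 0.0856) and Ccnb2 (-1.07, adjusted p 0.120) were below 0 without passing. The median of the 36 was -0.31, with 29 below 0, beside -0.0027 over all tested rows. KO1 and KO2 were both below every wild-type library for 16 members and above them for 2. Over all tested rows the shares were 19% below and 19.9% above. KO3 was the highest library for 30 of the 38 members tested with all libraries, so leaving it out lowers the knockout mean of those genes. With KO1 or KO2 left out instead, 0 members were called lower.

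**Figure D3:**
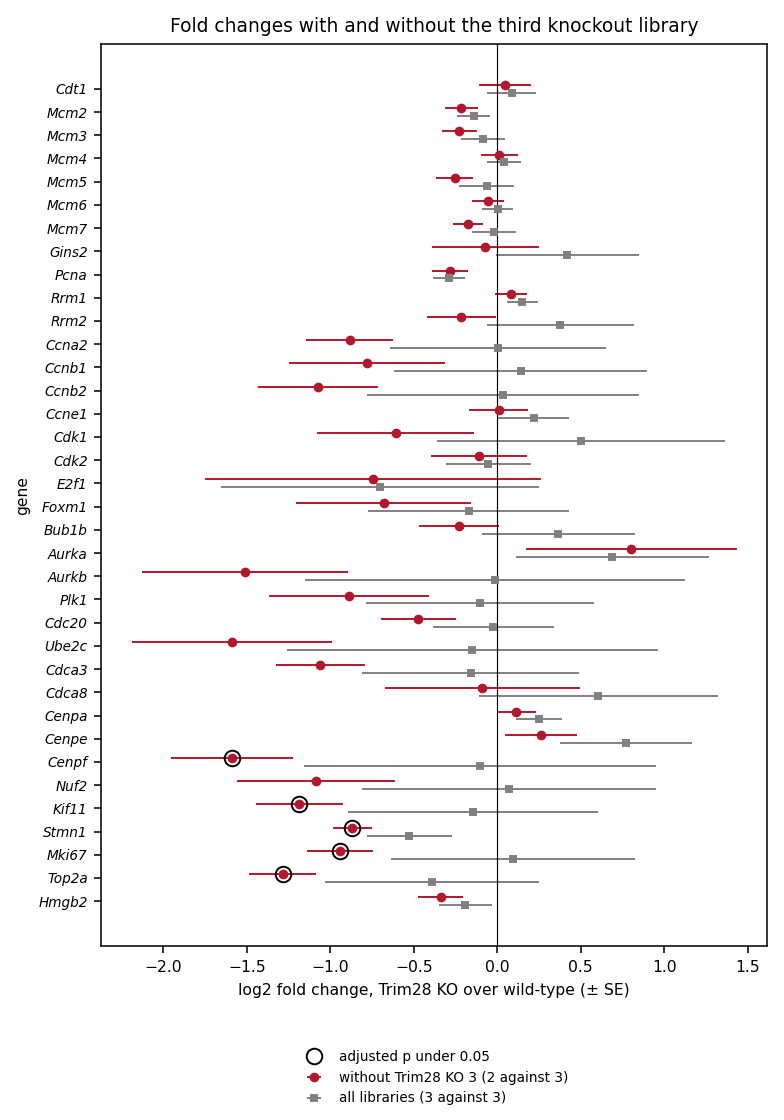
Log2 fold change of Trim28 KO over wild-type with its SE for the 36 members tested in both fits, without KO3 (red circles) and with all libraries (grey squares), and open circles around those with an adjusted p under 0.05. Without KO3 the 5 circled members lie between -1.59 and -0.87, and with all libraries their SE bars widen and 4 of the 5 reach across 0.

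Medians by role in the fit without KO3 were not compared by a test. The ranges of some roles overlapped and those of others did not. Licensing genes ranged from -0.26 to 0.05 and fork and nucleotide genes from -0.28 to 0.08. Both ranges lay above those of chromosome genes (-1.29 to -0.34), destruction genes (-1.59 to -0.47) and transcription factors (-0.74 to -0.68). The median log2 fold change was -0.12 for 8 licensing genes, -0.22 for 3 fork and nucleotide genes and -0.69 for 6 cyclins and kinases. It was -0.56 for 4 mitotic kinases and checkpoint genes, -1.06 for 3 destruction genes, -0.87 for 7 kinetochore and spindle genes and -0.94 for 3 chromosome genes. The 2 transcription factors had -0.71. KO3 over the mean of KO1 and KO2 had a median of 1.15 for fork and nucleotide genes and 1.25 for licensing genes, 3.94 for mitotic kinases and checkpoint genes and 4.20 for kinetochore and spindle genes. It was 6.45 for chromosome genes, 6.61 for cyclins and kinases and 6.66 for destruction genes. Over all 13022 tested rows its median was 0.997, its 90th percentile 1.55 and its 99th percentile 13.8, with 1 added to both terms. The highest ratios were 25.5 for Aurkb, 21.6 for Cenpf and 18.7 for Ube2c. These ratios compare libraries of 1 genotype and have no replicate check.

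Markers of several other cell types were, like the proliferation genes, highest in KO3. Mki67 was highest in KO3, followed by WT3, WT1, WT2, KO1 and KO2. The summed B cell and MHC class II markers were highest in KO3 too, followed by WT1, WT3, KO1, KO2 and WT2. The sum of 8 myeloid markers was 157, 144 and 1113 in KO1, KO2 and KO3, against 435, 131 and 385 in WT1, WT2 and WT3, with Cd14 near 0 in each. The 2 CD8 markers summed to 755, 708 and 4416, against 873, 561 and 1065. Jchain, a plasma cell gene, had 285, 179 and 4180, against 1485, 210 and 1108, and Mpo, a gene of granulocyte precursors, had 39.98, 7.29 and 1737, against 227, 9.904 and 131. WT2 was therefore near KO1 and KO2 in these markers, while WT1 and WT3 were higher. The thymocyte sum of 1761, 2149 and 1872, against 1721, 1906 and 1665, was almost wholly Cd1d1, while Rag1 was at 25.5 in KO3, against 2.14 and 1.46 in KO1 and KO2 and 2.20 to 12.5 in wild-type libraries. The natural killer sum of 2809, 2094 and 2653, against 2032, 2386 and 1893, was mostly Prf1, and KO3 was the highest library for 4 of its 6 genes. Among these, Gzma had 203, 233 and 546, against 138, 146 and 135, and Ncr1 had 77.8, 64.1 and 341, against 53.0, 51.7 and 53.3. KO3 was also the highest library for 7 of 9 markers of activated T cells, among them Tnfrsf4, with 457, 444 and 771, against 482, 362 and 440. Dendritic markers summed to 258, 153 and 781, against 216, 179 and 276, and erythroid markers to 19.3, 24.8 and 199, against 102, 34.1 and 56.4. Neutrophil markers summed to 40.7, 8.74 and 1858, against 588, 11.0 and 239, mostly through Mpo, and KO3 was the highest for 2 of 5. S100a8, for one, had 0, 0 and 96.4, against 311, 0 and 88.1. Limma called no marker of the B cell, plasma cell, myeloid, neutrophil, dendritic, CD8, natural killer, erythroid or thymocyte lists, and the part of these cells in the member values was not tested.

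**Figure D4:**
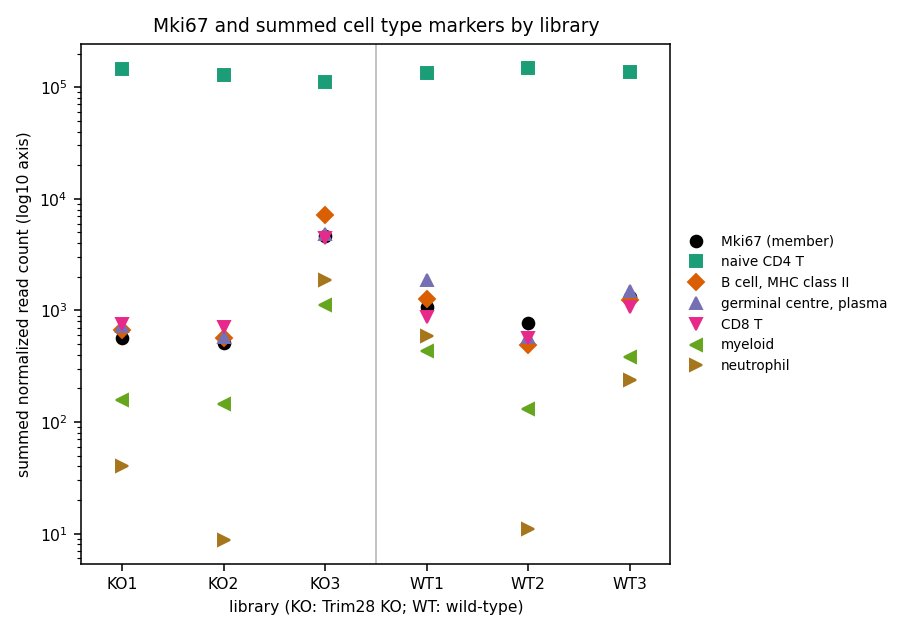
Normalized read count of Mki67 and summed normalized read counts of 6 marker lists in each library, on a log10 axis. Mki67 and the markers of other cell types are highest in KO3 and low in KO1, KO2 and WT2, while the naive CD4 T cell sum stays between 110217 and 149881. Overlapping points hide one another in part.

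WT2 was the wild-type library with the lowest B cell marker sum, and values against it alone, a choice made after the data were seen, are given as a description. The 5 called members were below every wild-type library in KO1 and KO2, so their direction against WT2 follows from that. The mean of KO1 and KO2 was 0.37 of WT2 for Cenpf, 0.57 for Top2a, 0.59 for Stmn1, 0.64 for Kif11 and 0.70 for Mki67, with 1 library as the reference and no test. For the 36 members together, KO1 and KO2 were both below WT2 in 20 and both above it in 9, beside 32.9% and 34.2% of all tested rows. Ccnb1 (1.27), Cdca8 (2.56) and Aurka (2.67) were among those above 1. In a fit of all libraries with the B cell marker sum as a covariate, chosen after the data were seen, 3 members were lower and 0 higher, beside 2.64% and 4.38% of all tested rows. They were Top2a (-0.82, SE 0.13, adjusted p 0.00391), Stmn1 (-0.68, SE 0.11, adjusted p 0.00398) and Kif11 (-0.64, SE 0.17, adjusted p 0.0459). Mki67 (-0.39, adjusted p 0.157) and Cenpf (-0.77, adjusted p 0.291) did not pass there.

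Stmn1 and Top2a were the members that kept their call when a wild-type library was left out beside KO3. Their adjusted p was 0.00899 and 0.0129 without WT1 and 0.0128 and 0.0198 without WT3. Mki67 had an adjusted p of 0.0696 without WT1 and 0.0623 without WT3, Kif11 0.106 and 0.103, and Cenpf 0.0954 and 0.131, and Cenpf also missed without WT2 (0.0534). The log2 fold changes stayed between -1.65 and -0.76 for the 5 genes in these fits. Without KO3 and WT2, 7 members were lower, beside 2.13% of all tested rows, and without KO3 and WT1 or WT3 there were 2 each, beside 0.397% and 0.46%. Every call among the members came from a fit without KO3 or with the marker covariate.

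Other genes of the pathway were read from 4 further lists. Of 45 tested genes of DNA replication, 1 rose, 0 fell and 44 did not pass, beside 1.19% called higher and 0.315% lower of all tested rows. An unadjusted p under 0.05 was reached by 5 of the 45 and by 12.7% of all tested rows. The riser was Chaf1b, a subunit of the chromatin assembly factor that places histones on new DNA. It had 1102, 1266 and 1313.5 normalized reads in KO1, KO2 and KO3, against 653, 467 and 533 in WT1, WT2 and WT3, and rose by 1.16 on the log2 scale (SE 0.14, adjusted p 0.00385). KO3 was at the level of the other knockout libraries here, and Chaf1b was called in each alternative fit run. It lies on chromosome 16 (93883900 to 93906115), next to Morc3 (93832121 to 93876077), a chromatin ATPase gene that also rose (log2 fold change 1.52, SE 0.15, adjusted p 0.00129). Gins3 (0.42, adjusted p 0.256) and Dbf4, the activator of the origin-firing kinase (-0.58, adjusted p 0.314), did not pass, although their groups did not overlap.

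Of 53 tested genes of mitosis, 0 were called over all libraries, beside 1.19% called higher and 0.315% lower of all tested rows. An unadjusted p under 0.05 was reached by 3 of the 53 and by 12.7% of all tested rows. Without KO3, 4 of 50 fell and 0 rose, beside 1.55% and 2.75% of all tested rows, and 19 had an unadjusted p under 0.05, beside 21.2%. The 4 were Kif22, a chromosome motor (140, 128 and 273 in KO1, KO2 and KO3, against 234, 230 and 229 in WT1, WT2 and WT3), Hmmr, a spindle protein (20.7, 17.5 and 255, against 65.5, 39.6 and 65.7), Ncaph, a condensin subunit (101, 90.3 and 269, against 162, 160 and 176), and Tacc3, a spindle protein (238, 240 and 533, against 347, 343 and 395). Their log2 fold changes without KO3 were -0.78 (SE 0.16), -1.50 (SE 0.34), -0.79 (SE 0.19) and -0.59 (SE 0.14), with adjusted p of 0.0285, 0.0408, 0.0440 and 0.0484. These 4 genes had KO1 and KO2 below every wild-type library and KO3 above every one. They were picked by their call without KO3, so the position of KO1 and KO2 follows from that choice. Smc4, Tuba1b, Pttg1 and Dlgap5, of the same list, did not show this pattern. They were picked by the smallest p over all libraries, which disfavours genes with knockout libraries on both sides of wild-type. They are therefore no comparison for the pattern. The calls of Kif22, Hmmr, Ncaph and Tacc3 did not hold when WT1 or WT3 was left out as well. Smc4, another condensin subunit, was abundant, at 48089, 54447 and 46543, against 41056, 43771 and 41012, and did not pass (0.24, adjusted p 0.336). Tuba1b, Pttg1 and Dlgap5 did not pass either (adjusted p 0.256, 0.344 and 0.414).

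Of 22 tested genes of G1 entry, E2F factors and their repressors, 0 were called, and 0 had an unadjusted p under 0.05. Over all tested rows 1.19% were called higher and 0.315% lower. Without KO3, E2f2 fell among 20 tested and 0 rose, beside 1.55% called lower and 2.75% called higher of all tested rows. E2f2, an E2F activator used by lymphocytes, had 510, 442 and 964 normalized reads in KO1, KO2 and KO3, against 852, 655 and 999 in WT1, WT2 and WT3, and a log2 fold change of -0.79 (SE 0.17, adjusted p 0.0339) without KO3. That call did not hold when WT1 or WT3 was left out as well (adjusted p 0.0922 and 0.0934). Ccnd1, Cdk4 and Cdk6, which carry cells through G1, did not pass, at log2 fold changes of 0.39, -0.27 and 0.35 over all libraries. Of 16 tested brakes of the cycle, 0 were called, and 3 had an unadjusted p under 0.05, near the share of 12.7% over all rows. Btg2, an antiproliferative factor, had 16230, 15574 and 13458 reads, against 18685, 18731 and 17747 (-0.29, adjusted p 0.242), and Ccng2, a cyclin of quiescent cells, had 3551, 3478 and 3151, against 2543, 2996 and 2758 (0.30, adjusted p 0.234). Cdkn2d, an inhibitor of Cdk4 and Cdk6, and Btg1 did not pass (adjusted p 0.352 and 0.537).

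The members took 0.108%, 0.110% and 0.178% of the normalized reads in KO1, KO2 and KO3, against 0.127%, 0.113% and 0.141% in WT1, WT2 and WT3. Most of each share came from licensing genes and Pcna, and the excess in KO3 was larger within the chromosome genes. Mki67, Top2a and Hmgb2 together took 0.0104%, 0.0111% and 0.0375% in KO1, KO2 and KO3, against 0.0169%, 0.0129% and 0.0200% in WT1, WT2 and WT3.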

How the data were processed

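RNA of naive CD4 T cells was sequenced as paired reads of 100 bp, per the labels' protocols. The submitters' processing notes name STAR, HTSeq, DESeq2 and mm10, with no versions or roles. The authors deposited log10 values for 19048 RefSeq transcript rows, which turn back, as 10 to the value minus 1, into whole multiples (within 0.01) of 1 step per library for 100% of values. They are thus reads divided by a size factor, called normalized reads here. The sources used here do not say whether counting used the strand or how shared reads were assigned. RefSeq names came from GRCm38.p6 (18807 rows) and GENCODE M21 (108 rows), and 133 rows stayed unnamed.

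Limma 3.58.1 in R 4.3.3 was fitted with the empirical Bayes trend on log2 of normalized reads plus 1, for rows averaging 10 or more over the libraries fitted, with Benjamini-Hochberg adjustment over all tested rows, two-sided. The pseudocount understates changes of low genes. Labels name no mouse per library, and p-values reflect spread among libraries, which may be technical. The fit of 3 against 3 libraries was tested on simulated data in which no library stood apart. The fits that leave out libraries or add a covariate were not tested so. Members and lists were chosen with earlier results of these data known. Named members were those called with all libraries or without KO3 and the 3 with the highest mean in each role. Genes of other lists were the called ones and the 4 with the smallest p, of which 1 is not reported here. Alternatives were other pseudocounts, filters and scalings, voom weights, a replicate block, a Y-linked covariate and each library left out, and, chosen after seeing the data, a B cell marker covariate and KO3 left out with 1 wild-type library. TMM factors were not run, and upper quartile scaling took their place. Promoters came from RefSeq. Transcript lengths came from GENCODE M21. Floors for counts of 0 cover counting error only. Count models such as that of DESeq2 were not run, although whole reads could be recovered from the deposited log10 values.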

Additional observations from a re-analysis of the deposited data

How the results depend on the processing

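Across 21 alternatives, 0 members were called higher, and members called lower numbered 0 except without KO3 (5), with the B cell marker covariate (3) and without KO3 and 1 wild-type library (2, 7 and 2 without WT1, WT2 and WT3). The cause was not tested. Leaving out libraries, the members called lower ranged from 0 to 7, other mitosis genes lower from 0 to 5, other replication genes lower from 0 to 1, G1 genes lower or higher from 0 to 1, all rows called higher from 94 to 561 and all rows called lower from 14 to 275 (155 and 41 with all libraries). Rows called lower were 17 without the variance trend and 20 with voom. The B cell marker covariate gave 571 rows higher and 344 lower, with 1 G1 gene lower (E2f2) and 1 brake higher (Ccng2), and quantile normalization gave 1 mitosis gene higher (Smc4). Correlations of deviations between libraries of the same replicate number were mixed, at -0.312, 0.256 and 0.363 for numbers 1, 2 and 3. The numbers were not treated as pairs in the main fit. With the replicate block 0 members were called and 143 rows were higher and 32 lower. The following log2 fold changes, none called with all libraries, turned sign. With upper quartile scaling Mcm6 had -0.0029 and Ccna2 -0.0020. With quantile normalization Ccna2 had -0.0552 and Btg1 0.1241. With the Y-linked covariate Mcm6 had -0.0009 and Aurkb 0.0246. With a pseudocount of 5 Aurkb had 0.1579 and Ube2c 0.0283. With voom Foxm1 had 0.0244, Plk1 0.1047, Cdc20 0.0710, Ube2c 0.0611 and Cenpf 0.0976. With the B cell marker covariate Mcm6 had -0.0221, Ccna2 -0.4247, Ccnb1 -0.3523 and Mki67 -0.3949. Leaving out libraries gave ranges of -0.0542 to 0.1399 for Mcm4, -0.0926 to 0.0552 for Mcm6, -0.351 to 0.7415 for Rrm2, -1.1111 to 0.5257 for Ccna2, -1.3315 to 0.6591 for Ccnb1, -0.1415 to 0.3905 for Ccne1, -0.8885 to 0.6094 for Foxm1, -0.4359 to 0.7599 for Bub1b, -1.8352 to 0.8962 for Aurkb, -1.0085 to 0.720 for Plk1, -0.5912 to 0.3346 for Cdc20, -1.9881 to 0.9793 for Ube2c, -1.1863 to 0.306 for Cdca3, -1.649 to 0.8866 for Cenpf, -1.46 to 0.4006 for Kif11, -1.1507 to 0.653 for Mki67, -1.5186 to 0.1059 for Top2a and -1.7332 to 0.4006 for Hmmr. Depth limits the genes near 0, such as Ttk and Bub1.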

Other observations

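Markers of activated and regulatory T cells were mixed in these libraries. Nrp1, a surface receptor found on thymic regulatory T cells, had 4555, 4794 and 4137 normalized reads in KO1, KO2 and KO3, against 378, 397 and 334 in WT1, WT2 and WT3 (log2 fold change 3.60, SE 0.11, limma adjusted p 1.42e-06). Il2ra, a chain of the interleukin 2 receptor, had 358, 373 and 714, against 172, 151 and 188 (1.43, SE 0.26, adjusted p 0.0326). Foxp3, the defining factor of regulatory T cells, did not pass the filter, at 11.4, 7.29 and 2.39, against 6.97, 9.904 and 9.27. Ifng, an effector cytokine, was at 164 in KO3, against 4.28 and 13.1 in KO1 and KO2 and 3.30 to 28.6 in wild-type libraries, and did not pass (adjusted p 0.793). The regulatory list summed to 7018, 7215 and 8978, against 2200, 2572 and 2133, with Nrp1 its largest part in Trim28 KO libraries and Ikzf2 in wild-type libraries. Ikzf2 had 1375, 1307 and 3249, against 997, 1443 and 1028, and did not pass (adjusted p 0.458). The activated list summed to 12712, 14048 and 16266, against 19250, 14963 and 17037, mostly through Cd69, and KO3 was the highest library for 7 of its 9 genes.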
